A study of Arabidopsis thaliana with 6 samples.

Results

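Root tips of Arabidopsis thaliana seedlings labelled as treated with gibberellin (GA) for 120 min were compared with untreated root tips at 0 min. The comparison took 4 of the 6 Affymetrix ATH1 arrays of the study, with 1 array per sample: 2 of GA-treated roots at 120 min and 2 of untreated roots at 0 min. These groups differ in treatment and in time at once, so for each function the other 2 arrays, untreated roots at 120 min, were read as the check on time, the time control. The GA-treated samples had the source name GA2oxOE1I, a Col-0 genetic background and a label of gene knock out. Both untreated groups were labelled Col-0 with no genetic change. The labels do not say what that source name stands for or which gene is meant, so plant line and treatment cannot be told apart here. All seedlings were 7 days old and had grown in continuous light on upright plates of medium with sucrose. No dose or form of GA was given, and no mock treatment was named for the untreated roots at 120 min. Nothing said that replicates were separate cultures, so the spread measured here may be technical.

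GA is a hormone that promotes elongation growth. It binds the receptors GID1A, GID1B and GID1C, and the complex is recognised by the F-box protein SLY1, which marks DELLA proteins, repressors of growth, for breakdown. In roots GA acts on elongating cells, whose walls are loosened by expansins and remodelled by xyloglucan endotransglucosylase/hydrolases (XTH enzymes).

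Of the 9 cell type markers that could be read by name, EXPA7 and EXPA18 mark root hair cells. Their summed signal was 449 and 527 in GA-treated roots, 559.8 and 632 in untreated roots at 120 min, and 570.5 and 699.7 in untreated roots at 0 min. AUR1 and AUR2, Aurora kinases of dividing cells, summed to 254 and 168 in GA-treated roots, 196 and 164 in the time control, and 199 and 196 at 0 min. RCA and LHCB4.1, markers of green tissue, summed to 151 and 275 in GA-treated roots, 183 and 462 in the time control, and 228 and 276 at 0 min. The GA-treated arrays were the lowest for root hair markers and overlapped the untreated arrays for the others. No marker of non-hair epidermis, root cap, endodermis or stele was named by a probe set, so these parts of the label were not checked here. In whole root tips, fewer cells of a type and less RNA per cell cannot be told apart.

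Array quality set GA-treated replicate 1 apart. The ratio of 3' to 5' signal for actin, which is high where RNA is degraded or labelling is incomplete, was 14.8 on that array for the control probe sets named r2, with the rest between 2.22 and 4.94. For the probe sets named Athal the actin ratio was 22.7 there and 12.9 to 21.0 elsewhere, and the GAPDH ratio was 12.1 there and 1.31 to 3.61 elsewhere. In each of the 3 groups, replicate 1 had the higher ratio for actin, GAPDH and ubiquitin in both sets. The probe set for 25S ribosomal RNA read 61.3 there and 812 to 5288 elsewhere. The replicates correlated at 0.907 for GA-treated roots, 0.945 for untreated roots at 120 min and 0.958 for untreated roots at 0 min across the 13647 probe sets tested, which are not independent replicates. The part of array quality in the differences below was not tested. Values without that array are given for many, but not all, of the genes and lists that turn on it. Without it, 19 of the 25 lower genes chosen below for the largest differences lay closer to 0 by over 1.5 times and 2 of the 29 higher ones did, and 158 of the 504 tested list members changed sign. No such count was made without GA-treated replicate 2 or over all probe sets. The sign changes are thus not shown to be particular to replicate 1 or to the lists. A value without 1 GA-treated array sets the other against the mean of both 0 min arrays.

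No transcript passed the test when GA-treated roots were set against 0 min roots. In limma, fitted to log2(signal + 16) with Benjamini-Hochberg adjustment, 0 of 13647 probe sets (0%) had an adjusted p under 0.05, and the lowest adjusted p was 1.00. At an unadjusted p under 0.05, 195 probe sets (1.43%) read higher and 155 (1.14%) read lower in GA-treated roots, 350 (2.56%) together. The 2 groups did not overlap for 1764 probe sets (12.9%) with higher and 2050 (15%) with lower values in GA-treated roots. For untreated roots at 120 min against 0 min, also with 0 called, 93 (0.681%) read higher and 65 (0.476%) lower at an unadjusted p under 0.05, and the groups did not overlap for 1533 (11.2%) and 2154 (15.8%) probe sets, higher and lower at 120 min. These 2 contrasts share the 0 min arrays, so their values are set side by side below and no likeness between them is measured. GA-treated against untreated roots at 120 min gave 0 called, a lowest adjusted p of 0.999 and 164 probe sets (1.2%) at an unadjusted p under 0.05. The median 95% confidence interval of a log2 difference reached 0.64 to either side. All differences below are therefore values on that scale and not changes.

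Glucosinolate synthesis held the named gene with the highest difference of all genes with a symbol. Glucosinolates are defence compounds of the cabbage family, made in part from methionine. BCAT4, which starts the lengthening of the methionine side chain, read 132 and 194 in GA-treated roots, 64.2 and 222 in untreated roots at 120 min, and 43.01 and 41.9 in untreated roots at 0 min. Both GA-treated arrays lay above both 0 min arrays, and so did both untreated arrays at 120 min. The log2 difference was 1.59 (95% confidence interval 0.58 to 2.61) for GA-treated roots and 1.24 for untreated roots at 120 min, each against 0 min. UGT74B1, which adds the glucose of the glucosinolate core, read 193 and 197 in GA-treated roots, 143 and 203 in untreated 120 min roots, and 78.4 and 135 at 0 min. It differed by 0.82 in GA-treated roots and 0.64 in the time control, again with both untreated 120 min arrays above both 0 min arrays. Between the 120 min groups, GA-treated minus untreated, the difference was 0.35 (95% confidence interval -0.66 to 1.37) for BCAT4 and 0.18 (95% confidence interval -0.48 to 0.83) for UGT74B1. The time control thus showed the shift of both genes. The glucosinolate transporters GTR1 and GTR2 did not read higher, with differences of -0.087 and -0.67 in GA-treated roots and -0.30 and -0.18 in untreated roots at 120 min. That of GTR2 was 0.11 in GA-treated roots without replicate 1.

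Cell wall genes did not move as a block. Of 8 tested XTH genes, 4 read higher and 4 lower in GA-treated roots (median -0.03), and the same counts held for untreated roots at 120 min (median 0.01), beside 6571 higher and 7076 lower of all probe sets (median -0.01). The 2 GA-treated arrays were opposed here. Without replicate 1, 2 XTH genes read higher and 6 lower (median -0.24), and without replicate 2, 5 read higher and 3 lower (median 0.35). XTH18 read 233 and 186 in GA-treated roots, 214 and 389 in untreated roots at 120 min, and 100.4 and 139.9 in untreated roots at 0 min. Its log2 difference from 0 min was 0.73 in GA-treated roots and 1.18 in untreated roots at 120 min. XTH19 read 183 and 171 in GA-treated roots, 189 and 205 in untreated 120 min roots, and 117 and 117 at 0 min, with differences of 0.54 in GA-treated roots and 0.68 in the time control. For both genes the GA-treated and the untreated 120 min arrays all lay above the 0 min arrays, so the time control showed the shift. EXGT-A3 and XTH32 had the lowest values of the family, at -0.40 and -0.35 in GA-treated roots, against -0.079 and -0.27 in untreated roots at 120 min. EXGT-A3 lay at -0.083 in GA-treated roots without replicate 1.

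Alpha-expansins, which loosen walls without cutting them, had 1 member higher and 5 lower of 6 tested, with a median of -0.36 in GA-treated roots and -0.12 in untreated roots at 120 min. EXPA9 read 232 and 421 in GA-treated roots, 495 and 486 in untreated roots at 120 min, and 465 and 596 in untreated roots at 0 min. Its GA-treated arrays lay below all 4 untreated arrays, neither untreated 120 min array lay below both 0 min arrays, and the log2 difference was -0.72 in GA-treated and -0.10 in untreated 120 min roots. The time control did not show this shift, which was larger on GA-treated replicate 1, and the difference between the 120 min groups, -0.62 (95% confidence interval -1.30 to 0.057), did not pass (limma adjusted p = 0.999). With that array left out, EXPA9 differed by -0.31 from 0 min and by -0.21 between the 120 min groups. EXPA15 stood on the other side, at 190.1 and 123 in GA-treated roots, 126 and 330.2 in untreated 120 min roots, and 73.9 and 97.7 at 0 min. It differed by 0.74 in GA-treated and 1.13 in untreated roots at 120 min, so the time control showed its shift. EXPA7, of root hair cells, differed by -0.52 in GA-treated roots and -0.13 in the time control, and its 2 groups overlapped. Against the mean of both 0 min arrays, the family median depended on GA-treated replicate 1. Without it 3 members read higher and 3 lower (median -0.0152), and without replicate 2 the median was -0.93. Against the 0 min array of the same replicate number, the median was -0.64 for replicate 1 and -0.29 for replicate 2, lower in both. The 4 tested expansins of other families had medians of 0.12 in GA-treated and 0.25 in untreated roots at 120 min, with EXLB1 the highest at 0.24 and EXLA1 the lowest at -0.0016. With GA-treated replicate 1 left out, their GA-treated median was -0.13 and EXLA1 lay at -0.72.

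With all arrays kept, the medians of other wall families lay close to that of all probe sets. The 9 genes of cellulose and glucan synthesis had medians of -0.14 in GA-treated and -0.13 in untreated roots at 120 min. CSLC04, a synthase of the xyloglucan backbone, read 212 and 235 in GA-treated roots, 179.8 and 293 in untreated 120 min roots, and 179.6 and 177 at 0 min, with differences of 0.30 in GA-treated roots and 0.34 in the time control, and both untreated 120 min arrays shared its side. COB, which orients cellulose deposition, differed by -0.39 in GA-treated and 0.19 in untreated roots at 120 min, with groups that overlapped. Among 7 glycosyl hydrolases (medians 0.07 in GA-treated roots and -0.02 in the time control), GH9B8 was the highest at 0.35 and GH9C1 the lowest at -0.34 in GA-treated roots, against -0.065 and -0.016 in the time control. GH9C3 differed by 0.13 from 0 min in GA-treated roots, against -0.64 in untreated roots at 120 min, so its time control lay on the other side. The 18 TBL genes of wall acetylation had medians of 0.02 in GA-treated roots and -0.08 in the time control, from 0.52 for TBL30 to -0.56 for TBL32, against -0.19 and -0.18 in untreated roots at 120 min. Of the 3 pectin enzymes, ATPMEPCRD differed by 0.086, GAUT15 by -0.10 and PMEPCRF by -0.12 in GA-treated roots, against -0.38, -0.30 and 0.20 in the time control. When GA-treated replicate 1 was left out the difference was -0.045 for COB, -0.47 for GH9B8, -0.044 for GH9C1 and -0.10 for GH9C3, so GH9C3 then lay on the side of its time control. Of the glycosyl hydrolases, 1 then read higher and 6 lower (median -0.22).

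**Figure D1:**
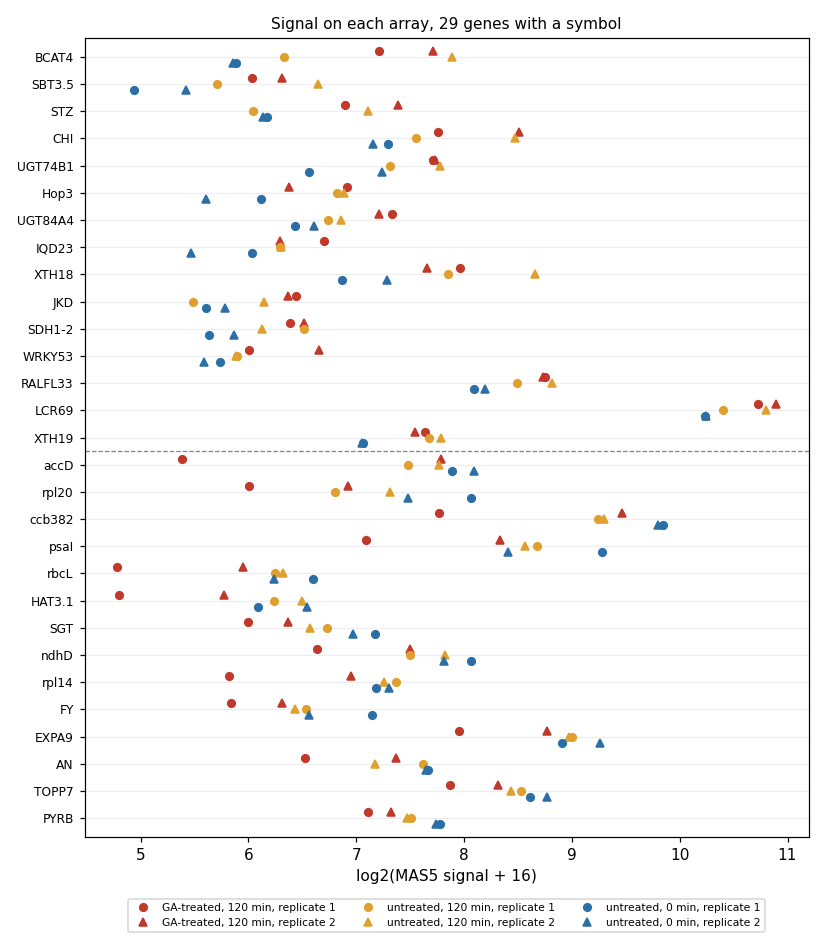
Signal of the 29 genes with a symbol that had an unadjusted p under 0.05 and groups that did not overlap, on each of the 6 arrays as log2(MAS5 signal + 16), with GA-treated roots in red, untreated roots at 120 min in yellow and untreated roots at 0 min in blue, and the replicate as circle or triangle. Of the 15 genes above the dashed line, 13 had both untreated 120 min arrays above both 0 min arrays, and of the 14 below it, 8 had both below them. Over all probe sets tested these shares were 11.2% above and 15.8% below. The 0 min arrays entered both the choice of the genes and these counts, which are a description and no test.

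Stress and defence genes included several of the higher values. STZ (also called ZAT10), a zinc finger repressor induced by stress and touch, read 103 and 151 in GA-treated roots, 50.03 and 122 in untreated roots at 120 min, and 55.97 and 54.4 in untreated roots at 0 min. It differed by 0.99 in GA-treated roots and 0.42 in untreated roots at 120 min, where 1 of the 2 arrays lay above both 0 min arrays, so the time control showed the shift in part. WRKY53, a transcription factor of senescence and defence, read 48.2 and 84.96 in GA-treated roots, 43.5 and 42.96 in untreated 120 min roots, and 37.1 and 32.03 at 0 min. Both untreated 120 min arrays lay above both 0 min arrays, but by less, with differences of 0.67 in GA-treated and 0.23 in untreated roots. WRKY22 had the opposite time control, at 47.5 and 62.5 in GA-treated roots, 27.9 and 22.9 in untreated 120 min roots, and 38.2 and 41.1 at 0 min, with differences of 0.34 in GA-treated roots and -0.43 in the time control. The 6 tested WRKY genes had medians of 0.09 in GA-treated roots and -0.07 in the time control, and the GA-treated median was 0.45 without GA-treated replicate 1. Of 6 touch and calcium genes, 5 read higher and 1 lower in GA-treated and likewise in untreated roots at 120 min, with medians of 0.28 in GA-treated roots and 0.30 in the time control. The calmodulin-like genes CML42 and CML23 differed by 0.34 and 0.40 in GA-treated roots, against 0.58 and 0.27 in the time control, while CML43 had the lowest value, -0.037, and without GA-treated replicate 1 they lay at 0.71 for CML42 and -0.10 for CML23.

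CHI, the symbol given here to the chitinase gene AT2G43570, read 200.4 and 348 in GA-treated roots, 171 and 339.6 in untreated roots at 120 min, and 141 and 126 in untreated roots at 0 min. The differences were 0.91 in GA-treated and 0.79 in untreated roots at 120 min, with all 4 arrays at 120 min above both at 0 min. SBT3.5, a subtilisin-like protease, read 49.5 and 63.6 in GA-treated roots, 36.4 and 84.4 in untreated 120 min roots, and 14.7 and 26.8 at 0 min, and differed by 0.99 in GA-treated roots and 1.00 in the time control. LCR69, a plant defensin with signals of 1676 and 1881 in GA-treated roots, 1335 and 1772 in untreated roots at 120 min, and 1186 and 1199 at 0 min, differed by 0.57 in GA-treated roots and 0.36 in the time control. Each of these 3 genes showed the same side in both untreated 120 min arrays. The other tested defensins, LCR68 and PDF2.5, differed by 0.40 and -0.10 in GA-treated roots, against 0.24 and -0.27 in the time control. The list of class III peroxidases, which oxidise wall phenolics, had the highest median among lists with at least 3 tested genes, 0.43 in GA-treated and 0.50 in untreated roots at 120 min. It covers only the 4 tested genes that were matched by name, not the whole family. AT5G64120 read 72.6 and 756 in GA-treated roots, 85.2 and 910.3 in untreated 120 min roots, and 60.2 and 216 at 0 min, and was far lower on replicate 1 in every group. It differed by 0.98 in GA-treated roots and 1.20 in the time control, and AT2G41480 by 1.02 in GA-treated roots and 0.74 in the time control, while Prx37 and AT5G66390 lay at -0.11 and -0.12 in GA-treated roots, against 0.087 and 0.25 in the time control. Without GA-treated replicate 1 the peroxidase median was 0.88 and Prx37 lay at 0.27, and without replicate 2 the median was -0.32. These values are against the mean of both 0 min arrays. Against the 0 min array of the same replicate number, the peroxidase median was 0.19 for replicate 1 and 0.40 for replicate 2, higher in both. RALFL33, a peptide of the RALF family of growth regulators, read 416 and 408 in GA-treated roots, 343 and 434 in untreated 120 min roots, and 257 and 278 at 0 min, and differed by 0.60 in GA-treated roots and 0.50 in the time control. Of the 8 RALF-like and CLE peptides, 7 read higher in GA-treated and 7 in untreated roots at 120 min (medians 0.15 in GA-treated roots and 0.09 in the time control), but 3 read higher without GA-treated replicate 1.

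With all arrays kept, the listed chaperones with the largest differences lay on the same side in the time control. Hop3, a co-chaperone that joins Hsp70 to Hsp90, read 105 and 67.2 in GA-treated roots, 97.3 and 102 in untreated roots at 120 min, and 53.3 and 32.7 in untreated roots at 0 min. The log2 difference from 0 min was 0.79 in GA-treated roots and 0.99 in untreated roots at 120 min. Hsp70-2, AT5G48570 (ROF2, a prolyl isomerase of the FKBP family) and Fes1C, an exchange factor for Hsp70, differed by 0.53, 0.56 and -0.55 in GA-treated roots. In untreated roots at 120 min they differed by 0.50, 0.93 and -0.57, and for each of the 4 genes both arrays lay beyond both 0 min arrays on the side of the GA-treated mean. Hop3 lay at 0.52, AT5G48570 at -0.18 and Fes1C at -0.33 in GA-treated roots without replicate 1, so AT5G48570 then lay on the other side from its time control. ATERDJ2B, a co-chaperone of the endoplasmic reticulum, lay at -0.29 in GA-treated roots and -0.048 in the time control. Over all 13 tested members, 9 read higher and 4 lower in GA-treated roots (median 0.03), against 6 and 7 in the time control (median -0.05). Of 11 autophagy genes, 9 read higher in GA-treated and 10 in untreated roots at 120 min, with medians of 0.24 in GA-treated roots and 0.12 in the time control. ATG8F, a ubiquitin-like protein of the autophagosome, read 382 and 397 in GA-treated roots, 342 and 429 in untreated 120 min roots, and 238 and 336 at 0 min, with differences of 0.44 in GA-treated roots and 0.42 in the time control, so the time control showed the shift. ATG3, the enzyme that attaches ATG8 to lipid, was the lowest at -0.14. The 15 genes of the proteasome and of ubiquitin transfer had medians of 0.05 in GA-treated roots and -0.03 in the time control, from 0.48 for UBC29 to -0.21 for RPN12a, against 0.22 and -0.16 in the time control.

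Detoxifying and sugar-conjugating enzymes were split. UGT84A4, which conjugates hydroxycinnamates with glucose, read 145 and 132 in GA-treated roots, 90.5 and 100.4 in untreated roots at 120 min, and 70.6 and 81.4 in untreated roots at 0 min. It differed by 0.75 (95% confidence interval 0.24 to 1.26) in GA-treated and 0.28 in untreated roots at 120 min, whose arrays both lay between the 0 min and the GA-treated arrays. SGT, a sterol glucosyltransferase, read 47.97 and 66.5 in GA-treated roots, 89.8 and 79.4 in untreated 120 min roots, and 129 and 109 at 0 min, with differences of -0.89 in GA-treated roots and -0.42 in the time control, and its untreated 120 min arrays also lay between the other groups. UGT72E3, of lignin precursor conjugation, was the lowest of the family at -0.94, with a signal of 3.43 on GA-treated replicate 1 and a difference of -0.26 without it, and the time control was at -0.045. UGT76C2, a cytokinin glucosyltransferase, differed by -0.62 in GA-treated roots and 0.19 in the time control, so it was not shifted the same way in the time control, and it lay at -0.36 without GA-treated replicate 1. Of 24 tested UGT genes, 11 read higher and 13 lower in GA-treated roots (median -0.11), against 15 and 9 in untreated roots at 120 min (median 0.12). Without GA-treated replicate 1 the counts for GA-treated roots were 18 and 6 (median 0.24). The 7 cytochrome P450 genes had medians of 0.33 in GA-treated roots and 0.09 in the time control. CYP71B23 differed by 0.56 in GA-treated roots and 0.57 in the time control and CYP71B6 by 0.53 in GA-treated roots and 0.29 in the time control, each with 1 of 2 untreated 120 min arrays above both 0 min arrays. CYP84A4 was the lowest at -0.25 in GA-treated roots, against -0.34 in the time control. Of 10 glutathione transferases, 8 read higher and 2 lower in GA-treated roots (median 0.13), against 5 and 5 in the time control (median 0.09), from ATGSTF13 at 0.42 in GA-treated roots and 0.41 in the time control to GSTU25 at -0.25 in GA-treated roots and -0.58 in the time control. With GA-treated replicate 1 left out, ATGSTF13 lay at 0.097 and GSTU25 at -0.087.

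The patterning gene JKD and the homeobox gene HAT3.1 lay farther from 0 in GA-treated roots than in the time control. JKD, a zinc finger protein of ground tissue patterning, read 71.1 and 66.7 in GA-treated roots, 28.9 and 54.8 in untreated roots at 120 min, and 32.7 and 39.1 in untreated roots at 0 min. Its GA-treated arrays lay above all 4 untreated arrays, with a difference of 0.71 from 0 min, against 0.12 for untreated roots at 120 min, where 1 of 2 arrays lay above both 0 min arrays. HAT3.1, a homeodomain protein, read 11.9 and 38.7 in GA-treated roots, 59.2 and 74.5 in untreated roots at 120 min, and 51.98 and 76.99 in untreated roots at 0 min. Its GA-treated arrays lay below all 4 untreated arrays, the differences were -1.03 in GA-treated roots and 0.053 in the time control, and the difference between the 120 min groups was -1.08 (95% confidence interval -1.90 to -0.26, limma adjusted p = 0.999). HAT3.1 differed by -0.54 from 0 min and -0.59 between the 120 min groups, and JKD by 0.68 from 0 min, when GA-treated replicate 1 was left out. The time control did not show the shift of HAT3.1, and it showed that of JKD on 1 array. SCL21, a GRAS protein of the patterning list, differed by -0.14 in GA-treated roots and 0.37 in the time control, and by 0.046 in GA-treated roots without replicate 1. LBD16, an auxin-induced gene of lateral root founder cells, read 31.03 and 70.8 in GA-treated roots, 26.8 and 63.5 in untreated 120 min roots, and 3.63 and 35.9 at 0 min. It differed by 1.00 in GA-treated roots and 0.87 in the time control, while the arrays of each group spread as widely. WAG2, a kinase that acts on auxin transport, differed by 0.51 in GA-treated roots and 1.11 in the time control, and YUC2, of auxin synthesis, by 0.34 in GA-treated roots and -0.069 in the time control. The 6 auxin signalling genes had medians of 0.04 in GA-treated roots and -0.03 in the time control, with IAA31 the lowest at -0.37 in GA-treated roots, against -0.21 in the time control.

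Genes of cell division, histones and the cytoskeleton did not share 1 direction. The 6 genes of mitosis and cytokinesis had medians of 0.03 in GA-treated and -0.14 in untreated roots at 120 min, with AUR1 at 0.12 in GA-treated roots and -0.043 in the time control and BUB3.2, of the spindle checkpoint, at -0.30 in GA-treated roots and 0.084 in the time control. With GA-treated replicate 1 left out, 1 of these genes read higher and 5 lower (median -0.24), and AUR1 lay at -0.082. POLD3, a subunit of a replicative DNA polymerase, read 31.8 and 13.3 in GA-treated roots, 35.2 and 34.7 in untreated 120 min roots, and 51.4 and 38.3 at 0 min, and differed by -0.69 in GA-treated roots and -0.25 in the time control, with both untreated 120 min arrays below both 0 min arrays. All 6 tested histones read higher in GA-treated roots (median 0.28), against 3 of 6 in untreated roots at 120 min (median 0.01). HTB2, a histone H2B, read 194 and 89.9 in GA-treated roots, 129 and 61.5 in untreated 120 min roots, and 96.7 and 83.7 at 0 min, and it differed by 0.49 in GA-treated roots and -0.0014 in the time control. Without GA-treated replicate 1 only 1 of the 6 histones read higher and the median was -0.25. HON4, a linker histone-like protein, was the 1 of 6 members whose groups did not overlap, a share near the 12.9% of all probe sets with higher values, at 0.43 in GA-treated roots and 0.52 in the time control. Of 8 tubulin, actin and kinesin genes, TUB5, a beta-tubulin, had the lowest value, -0.58, from 323 and 494 in GA-treated roots, 495 and 498 in untreated 120 min roots, and 557 and 659.8 at 0 min. The time control lay at -0.28, with both arrays below both 0 min arrays, and without GA-treated replicate 1 the GA-treated value was -0.29. TUA1 was the highest at 0.35 in GA-treated roots and 0.45 in the time control. IQD23, a calmodulin-binding protein of the microtubule-associated IQD family, differed by 0.75 in GA-treated roots and 0.54 in the time control, while 16 of the 23 IQD, TRM, NET and myosin genes read lower in GA-treated and 15 in untreated roots at 120 min (medians -0.13 in GA-treated roots and -0.15 in the time control). IQD16 was the lowest at -0.62 in GA-treated roots and -0.64 in the time control. AN, which shapes cells through the cytoskeleton, read 75.8 and 149 in GA-treated roots, 181 and 129 in untreated 120 min roots, and 187 and 185 at 0 min, with differences of -0.72 in GA-treated roots and -0.26 in the time control, and of -0.29 in GA-treated roots without replicate 1.

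Transcripts of the plastid genome read lower mainly on 1 of the 2 GA-treated arrays. Plastids keep a small genome for photosynthesis, ribosomes and fatty acid synthesis, and in root tips they are not green. Of 53 tested plastid genes, 42 read lower and 11 higher in GA-treated roots (median -0.38), against 32 and 21 in untreated roots at 120 min (median -0.04). On GA-treated replicate 1, the array with the high actin ratio, 40 of 53 lay below the mean of the 0 min arrays with a median of -0.75, and on replicate 2 the counts were 33 of 53 with a median of -0.07. On the untreated 120 min arrays the medians were -0.17 and 0.07, and on the 0 min arrays they were 0.04 and -0.04. Without GA-treated replicate 1 the list median was -0.07, with 33 members lower and 20 higher.

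Of the 53, 6 had an unadjusted p under 0.05, all lower, beside 1.14% of all probe sets that were lower at that p, and all 6 lay closer to 0 by over 1.5 times without GA-treated replicate 1. The gene accD, for a subunit of acetyl-CoA carboxylase in fatty acid synthesis, read 25.8 and 205 in GA-treated roots, 163 and 202 in untreated roots at 120 min, and 221 and 256 in untreated roots at 0 min. The log2 difference was -1.40 (95% confidence interval -2.80 to -0.00079) in GA-treated and -0.36 in untreated roots at 120 min, both of whose arrays lay below both 0 min arrays. It was -0.20 in GA-treated roots without replicate 1, closer to 0 than the time control. For rpl20, a protein of the large plastid ribosomal subunit, the signals were 48.4 and 106 in GA-treated roots, 95.9 and 143 in untreated roots at 120 min, and 251 and 162 in untreated roots at 0 min. Its differences were -1.30 in GA-treated roots and -0.71 in the time control, so the time control showed the shift. For rpl14, of the same subunit, they were -0.86 in GA-treated roots and 0.069 in the time control, so it did not. On GA-treated replicate 2 alone, rpl20 lay at -0.84 and rpl14 at -0.29. The large subunit of Rubisco, rbcL, read 11.6 and 45.9 in GA-treated roots, 59.8 and 64.03 in untreated 120 min roots, and 80.99 and 59.3 at 0 min. It differed by -1.05 in GA-treated roots and -0.13 in the time control, psaI of photosystem I by -1.13 in GA-treated roots and -0.22 in the time control, and ndhD of the plastid NDH complex by -0.87 in GA-treated roots and -0.28 in the time control. The values on GA-treated replicate 2 alone were -0.47 for rbcL, -0.51 for psaI and -0.44 for ndhD. Neither untreated 120 min array lay below both 0 min arrays for rbcL or psaI, and 1 of 2 did for ndhD. The highest plastid gene was rpl32 at 0.61 in GA-treated roots and 0.31 in the time control, at 0.12 in GA-treated roots without replicate 1, followed by psbJ at 0.50 in GA-treated roots and 0.35 in the time control.

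Of 10 tested genes of the mitochondrial genome, 8 read lower and 2 higher in GA-treated roots (median -0.37), against 9 and 1 in untreated roots at 120 min (median -0.32). The time control thus lay on the same side. The gene ccb382, of cytochrome c maturation, read 201 and 689 in GA-treated roots, 591 and 613 in untreated 120 min roots, and 901 and 876 at 0 min. Its differences were -1.21 in GA-treated roots and -0.55 in the time control, and both untreated 120 min arrays lay below both 0 min arrays. Its value was -0.36 in GA-treated roots without replicate 1, closer to 0 than the time control. The cytochrome oxidase subunit gene cox2 differed by -0.66 in GA-treated roots and -0.64 in the time control, and ccb206 was the highest at 0.33 in GA-treated roots and -0.088 in the time control. Relative to the mean of the 0 min arrays the list medians were -0.24 and -0.36 on the GA-treated arrays, -0.26 and -0.36 on the untreated 120 min arrays, and 0.26 and -0.26 on the 0 min arrays themselves. The 0 min arrays themselves thus lay apart, and without 0 min replicate 1 the list median in GA-treated roots was -0.08. In the nucleus, SDH1-2, the flavoprotein of succinate dehydrogenase, read 67.7 and 75.6 in GA-treated roots, 75.5 and 53.9 in untreated 120 min roots, and 33.8 and 42.3 at 0 min. It differed by 0.70 in GA-treated roots and 0.57 in the time control, with all arrays at 120 min above both 0 min arrays, while the 8 nuclear genes of respiration had medians of -0.02 in GA-treated roots and 0.01 in the time control.

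**Figure D2:**
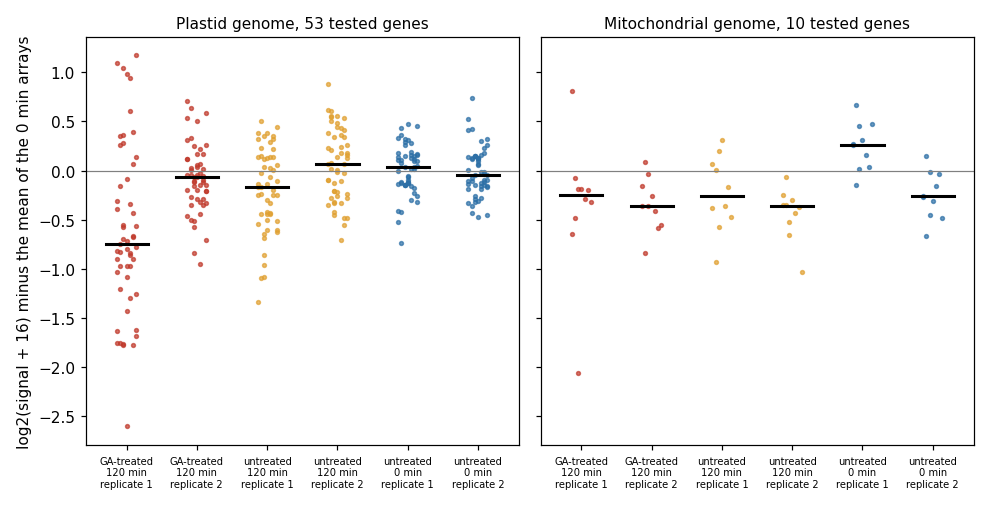
Each point is 1 tested gene of the plastid genome (left, 53 genes) or the mitochondrial genome (right, 10 genes) on 1 array, as log2(signal + 16) minus the mean of both 0 min arrays, with a bar at the median of each array. The plastid median is -0.75 on GA-treated replicate 1 and between -0.17 and 0.07 on the rest, and the mitochondrial medians are 0.26 and -0.26 on the 0 min arrays.

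Nuclear photosynthesis genes showed no common shift, with medians of 0.01 in GA-treated and 0.15 in untreated roots at 120 min over 13 genes. PORB, a light-dependent enzyme of chlorophyll synthesis, read 56.6 and 35.000 in GA-treated roots, 43.2 and 53.1 in untreated 120 min roots, and 5.61 and 33.9 at 0 min. It differed by 0.89 in GA-treated roots and 0.96 in the time control, and LHCB4.2, of the light-harvesting antenna, by -0.64 in GA-treated roots and -0.41 in the time control, each with both untreated 120 min arrays on the same side. PSBW and PSAN, of the photosystems, lay at 0.40 and -0.35 in GA-treated roots, against 0.42 and -0.18 in the time control, and PSBW lay at -0.093 without GA-treated replicate 1.

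The genes of GA perception rested on which GA-treated array was read. GID1B read 4.87 and 214 in GA-treated roots, 101 and 73.05 in untreated roots at 120 min, and 88.9 and 164 in untreated roots at 0 min. Its GA-treated arrays lay on both sides of all untreated arrays, with differences of -0.99 in GA-treated roots and -0.43 in the time control. GID1A read 19.7 and 60.9 in GA-treated roots, 46.4 and 47.2 in untreated 120 min roots, and 37.2 and 69.4 at 0 min, and SLY1 read 79.2 and 162 in GA-treated roots, 136 and 107 in untreated 120 min roots, and 159 and 144 at 0 min. They differed by -0.36 in GA-treated roots and -0.10 in the time control for GID1A and by -0.36 in GA-treated roots and -0.29 in the time control for SLY1, and the groups overlapped. Without GA-treated replicate 1 all 3 read higher than at 0 min (median 0.19), and without replicate 2 all 3 read lower (median -0.92). GID1C and SLY2, a relative of SLY1, lay below the signal filter. The signals of GID1C were 7.48 and 23.8 in GA-treated roots, 24.1 and 30.001 in untreated roots at 120 min, and 29.4 and 25.3 at 0 min. Those of SLY2 were 18.5 and 32.4 in GA-treated roots, 19.9 and 18.2 in the time control, and 34.3 and 25.6 at 0 min. XERICO, a RING zinc finger gene that DELLA proteins induce, read 134 and 197 in GA-treated roots, 219 and 130.2 in untreated roots at 120 min, and 246 and 242 in untreated roots at 0 min. Both GA-treated arrays and both untreated 120 min arrays lay below both 0 min arrays, with differences of -0.54 in GA-treated roots and -0.49 in the time control, so the time control showed the shift. XERICO lay at -0.29 in GA-treated roots without replicate 1. IDD16, a zinc finger protein of the INDETERMINATE DOMAIN family, differed by 0.40 in GA-treated roots and 0.43 in the time control, with both untreated 120 min arrays on the same side.

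Transport and nutrient genes had the following extremes. SWEET13, a sucrose exporter, read 4.94 and 32.9 in GA-treated roots, 15.6 and 32.4 in untreated 120 min roots, and 48.4 and 37.7 at 0 min, and differed by -0.88 in GA-treated roots and -0.59 in the time control, with the time control on the same side. SWEET11, of the same family, was the highest of 8 sugar genes at 0.44 in GA-treated roots, against 0.0045 in the time control (list medians 0.13 in GA-treated roots and 0.02 in the time control). Of 8 metal genes (medians 0.10 in GA-treated roots and 0.09 in the time control), ZIP6, a metal transporter, differed by 0.58 in GA-treated roots and 0.76 in the time control and the iron regulator bHLH115 by 0.38 in GA-treated roots and 0.54 in the time control, both shared by the time control, and bHLH121 by -0.32 in GA-treated roots and -0.40 in the time control. MT1C, a metallothionein, read 6119.9 and 4883 in GA-treated roots, 4946 and 3844 in untreated 120 min roots, and 4116 and 3793 at 0 min, with differences of 0.47 in GA-treated roots and 0.14 in the time control. Of the ATP sulfurylases, APS3 differed by 0.38 in GA-treated roots and 0.077 in the time control. The 4 proton pump genes, subunits of the vacuolar pump among them, all read lower in GA-treated roots (median -0.06) and 2 of 4 in untreated roots at 120 min, with VHA-A3 the lowest at -0.32 in GA-treated roots and -0.09 in the time control. Without GA-treated replicate 1, 3 of these pump genes read higher and 1 lower (median 0.11). On GA-treated replicate 2 alone SWEET13 lay at -0.27, SWEET11 at -0.038, bHLH121 at 0.33, APS3 at 0.69 and VHA-A3 at 0.15.

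Among other gene families, BZIP60, a transcription factor of the unfolded protein response, differed by 0.49 in GA-treated roots and 0.30 in the time control and was the highest of 14 bZIP genes (medians -0.06 in both contrasts). AGL26 was the highest of 6 MADS-box genes at 0.23 in GA-treated roots, against -0.19 in the time control, so its shift was not shared. PYK10, the beta-glucosidase of root endoplasmic reticulum bodies, lay at -0.014 in GA-treated roots and 0.13 in the time control, while BGLU46 was the highest of 6 beta-glucosidases at 0.47 in GA-treated roots and 0.73 in the time control and BGLU16 the lowest at -0.36 in GA-treated roots and -0.04 in the time control. TET8, a tetraspanin of exosomes, differed by 0.46 in GA-treated roots and 0.18 in the time control, and TET7 by -0.47 in GA-treated roots and -0.25 in the time control. Of 26 vesicle traffic genes (medians 0.03 in GA-treated roots and 0.03 in the time control), VPS60.1 differed by 0.59 in GA-treated roots and 0.35 in the time control, shared by both untreated 120 min arrays, and AT1G18830 by 0.65 in GA-treated roots and -0.24 in the time control, not shared. MED31 and MED6, subunits of the Mediator complex, differed by -0.62 and -0.65 in GA-treated roots, against 0.092 and -0.12 in the time control, and the shift was seen in neither untreated 120 min array for MED31 and in 1 of 2 for MED6. FY, of messenger RNA 3' end processing, differed by -0.78 in GA-treated roots and -0.37 in the time control, the phosphatase TOPP7 by -0.60 in GA-treated roots and -0.21 in the time control, and PYRB, the aspartate transcarbamoylase of pyrimidine synthesis, by -0.54 in GA-treated roots and -0.27 in the time control. For FY, TOPP7 and PYRB both untreated 120 min arrays lay below both 0 min arrays, by less than the GA-treated arrays on average. On GA-treated replicate 2 alone the values were -0.28 for MED31, -0.06 for MED6, -0.38 for TOPP7, 0.27 for VPS60.1 and 0.35 for AT1G18830.

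The remaining families had no common direction. Of 11 RNA polymerase subunits, 8 read higher and 3 lower in GA-treated roots, against 3 and 8 in the time control. Of 5 abscisic acid and dehydration genes the counts were 1 and 4, against 4 and 1. Without GA-treated replicate 1 they were 4 and 7 for the polymerase subunits and 4 and 1 for the abscisic acid genes. Of 6 chromatin and DNA repair genes, 5 read lower in GA-treated roots and 4 in the time control. COR47 and LTI30, dehydrins of cold and drought, differed by -0.073 and -0.27 in GA-treated roots and lay on the other side in untreated roots at 120 min, at 0.22 and 0.15. MYC3, a factor of jasmonate signalling, differed by -0.45 in GA-treated roots and -0.27 in the time control, with both untreated 120 min arrays on its side, and its relative MYC4 by 0.0016 in GA-treated roots and 0.0082 in the time control. GI, a clock gene, lay at -0.30 in GA-treated roots and -0.033 in the time control, and the receptor kinases FER and THE1, which sense the state of the wall, at -0.094 and -0.36 in GA-treated roots, against 0.13 and -0.027 in the time control. In redox balance, the glutaredoxin GRXC2 differed by 0.33 in GA-treated roots and 0.24 in the time control and the ascorbate peroxidase SAPX by -0.45 in GA-treated roots and -0.30 in the time control, each shared by both untreated 120 min arrays. The aldehyde dehydrogenases ALDH2C4 and ALDH22A1 were likewise shared, at 0.39 and -0.25 in GA-treated roots, against 0.42 and -0.25 in the time control. NRPB12, a subunit of RNA polymerases, differed by 0.53 in GA-treated roots, against -0.11 in the time control, from 812 and 393 in GA-treated roots, 483 and 264 in untreated 120 min roots, and 448 and 333 at 0 min. Its higher mean came from GA-treated replicate 1 alone. CCOAMT, a methyltransferase of phenylpropanoid synthesis, read 24.1 and 59.7 in GA-treated roots, 18.4 and 18.5 in untreated 120 min roots, and 21.1 and 20.9 at 0 min, and its difference of 0.57 was not shared by the time control, -0.10. The ubiquitin protease genes ran from UBP20 at 0.40 to UBP24 at -0.48 in GA-treated roots, against 0.056 and -0.16 in the time control, and the serine carboxypeptidase-like genes from scpl31 at 0.63 to scpl42 at -0.49 in GA-treated roots, against 0.43 and -0.31 in the time control. In chromatin and DNA repair, CHR23 differed by 0.47 and RAD4 by -0.36 in GA-treated roots, against 0.41 and -0.33 in the time control. With GA-treated replicate 1 left out, LTI30 lay at 0.34, MYC3 at -0.15, GI at 0.14, NRPB12 at 0.023, CHR23 at -0.19 and RAD4 at -0.92. COR47 then lay at 0.022 and FER at 0.30, so COR47, LTI30 and FER were on the side of their time control.

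**Figure D3:**
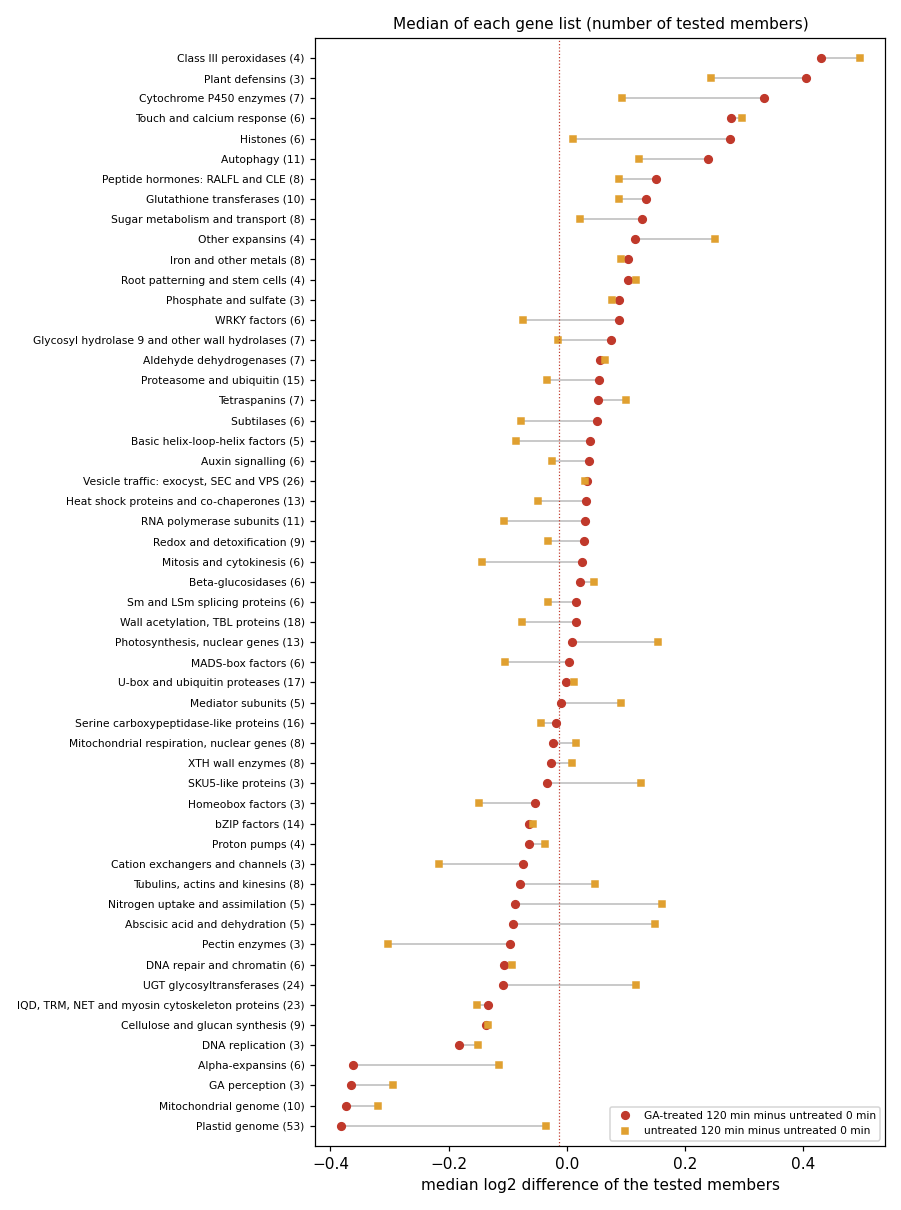
Median log2 difference from untreated roots at 0 min of each gene list with at least 3 tested members (54 lists, members in brackets), for GA-treated roots at 120 min (circles) and untreated roots at 120 min (squares), which share the 0 min arrays. The dotted line marks the median of all probe sets for GA-treated roots, -0.01, and the medians of the lists run from -0.38 for the plastid genome to 0.43 for class III peroxidases.

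The largest differences over all genes fell mostly on loci known here by identifier alone. AT3G45160 read 72.3 and 70.9 in GA-treated roots, 7.34 and 81.7 in untreated roots at 120 min, and 1.18 and 14.6 in untreated roots at 0 min. It differed by 1.93 in GA-treated roots and 1.06 in the time control, with 1 of 2 untreated 120 min arrays above both 0 min arrays. AT1G53620 read 46.2 and 72.4 in GA-treated roots, 25.7 and 82.4 in untreated roots at 120 min, and 3.84 and 7.39 in untreated roots at 0 min. Its differences were 1.78 in GA-treated roots and 1.57 in the time control, so the time control showed nearly the same value. AT5G39580 and AT5G24130 stood above the time control, at 1.58 and 1.39 in GA-treated roots, against 0.55 and 0.49 in the time control. AT5G24130 read 62.6 and 54.5 in GA-treated roots, 19.6 and 28.7 in untreated 120 min roots, and 14.01 and 10.7 at 0 min, and the difference between the 120 min groups was 0.90 (95% confidence interval 0.21 to 1.59, limma adjusted p = 0.999). AT2G25510 read 286 and 176 in GA-treated roots, 142 and 66.2 in untreated 120 min roots, and 129 and 55.6 at 0 min, and it differed by 1.24 in GA-treated roots, against 0.16 in the time control. The other genes with higher values were AT3G18250 (1.57 in GA-treated roots and 0.76 in the time control), AT3G03670 (1.42 in GA-treated roots and 1.01 in the time control), AT5G51440 (1.37 in GA-treated roots, 0.60 in GA-treated roots without replicate 1, and 1.47 in the time control), AT1G66880, AT1G36640, AT5G50140, AT1G32920, AT3G07600 and AT3G19660. Of the 15 genes with the largest higher values, BCAT4 included, 12 had both untreated 120 min arrays above both 0 min arrays and 3 had 1. Over all probe sets tested, 11.2% had both above. These counts are a description, since the 0 min arrays entered both the choice of the genes and the time control.

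AT2G07708 had the lowest difference, -1.83, from 67.9 and 348 in GA-treated roots, 357 and 444 in untreated roots at 120 min, and 679 and 537 in untreated roots at 0 min. Its probe set is marked as shared by related transcripts, and the time control lay at -0.58. With GA-treated replicate 1 left out it lay at -0.77 in GA-treated roots and was no longer the lowest of these genes. AT2G23700 read 12.9 and 23.5 in GA-treated roots, 57.1 and 51.7 in untreated 120 min roots, and 75.6 and 47.4 at 0 min. It differed by -1.17 in GA-treated roots, against -0.12 in the time control, with neither untreated 120 min array below both 0 min arrays. AT2G21860 read 4.41 and 22.7 in GA-treated roots, 59.6 and 39.4 in untreated 120 min roots, and 41.3 and 53.4 at 0 min, and the differences were -1.17 in GA-treated roots and 0.038 in the time control. For these 2 genes the difference between the 120 min groups was -1.06 (95% confidence interval -1.75 to -0.36) and -1.20 (95% confidence interval -2.05 to -0.36). Their differences from 0 min were -0.95 for AT2G23700 and -0.71 for AT2G21860 without GA-treated replicate 1. The remaining loci with lower values were AT5G24620, AT4G00990, AT5G08520, AT2G32450, AT5G41680, AT5G40860, AT5G62210 and AT4G29890. Of the 15 genes with the largest lower values, accD, rpl20, ccb382 and psaI included, 10 had both untreated 120 min arrays below both 0 min arrays, 3 had 1 and 2 had none. Over all probe sets tested, 15.8% had both below. As for the higher genes, these counts are a description. Of all 54 genes chosen by the rules for largest differences, each of the 25 lower ones read lower on GA-treated replicate 1 than on replicate 2, and 16 of the 29 higher ones read higher on replicate 1.

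**Figure D4:**
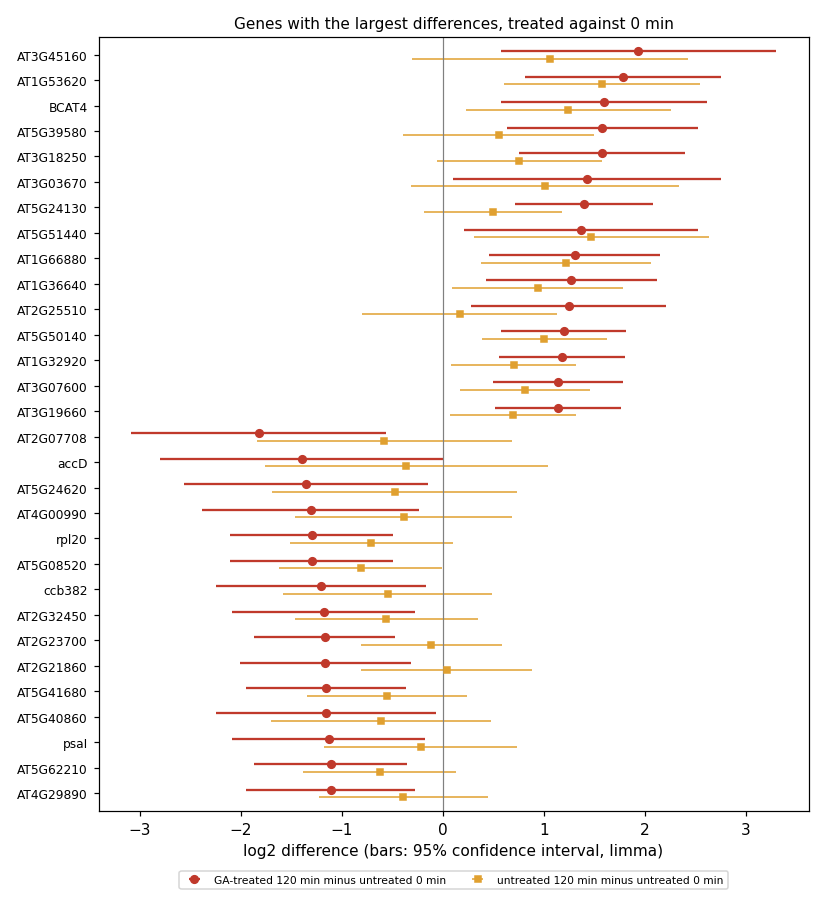
Log2 differences from untreated roots at 0 min, with 95% confidence intervals from limma, of the 15 genes with the largest higher and the 15 with the largest lower values in GA-treated roots (circles), and of the same genes in untreated roots at 120 min (squares). The circles run from 1.14 to 1.93 and from -1.83 to -1.11, and the genes were chosen on them, so their distance from 0 is no test.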

How the data were processed

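The deposited table gave MAS5 intensity on a linear scale. The submitters' processing notes list MAS5 and GCOS with no version. The genome build is not given in the sources used here. Target was made from total RNA by one-cycle labelling, per the labels' protocols. The mean intensity after leaving out the lowest and highest 2% was 100.01 on each of the 6 deposited arrays, and no log step was seen. MAS5 summarises each array by itself, so dim signals are noisy. Precision is limited by the number of arrays.

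After 64 controls were left out, 22746 probe sets were taken to log2(signal + 16), which understates differences of dim genes, and 13647 above the 40th percentile of mean log2 signal (a signal of 24.4) were tested. The model was limma 3.58.1 under R 4.3.3 (lmFit, eBayes with trend, all 3 groups, 3 residual and 5.80 prior degrees of freedom), two-sided, with Benjamini-Hochberg adjustment at 0.05. Probe sets were named from a platform annotation of 2016 and the RefSeq table of TAIR10.1: 13513 matched 1 gene, 503 several and 8730 were not listed. Of the genes tested by name, 7408 in all, 1022 had a symbol.

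The members and the 65 gene lists, 54 of them with at least 3 tested genes, were chosen with earlier results of these data known. Lists were built on gene names in the annotation alone, so family members without a matching name are left out. Since fewer than 10 genes passed, the rule named the 15 genes in each direction with the largest difference among those with an unadjusted p under 0.05 and groups that did not overlap. The same choice among genes with a symbol was added after the annotation was seen and gave 15 higher and 14 lower genes. From each list the rule allowed the 2 highest and the 2 lowest genes, and every gene of GA perception. Some list members, PYK10, GTR1, CML42 and Hsp70-2 among them, were named outside that rule. Genes of lists with fewer than 3 tested members were given as values. A gene with several probe sets was given by the brightest. In the time control, an array was counted when it lay beyond both 0 min arrays on the side of the GA-treated mean.

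The fit was tested on simulated data before use. Other pseudocounts, filters, normalizations, array weights, a replicate block and leaving out each array were tried. Values of list members without GA-treated replicate 1 were added after the data were seen. Sequences and coordinates are not used here.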

Additional observations from a re-analysis of the deposited data

Results flagged for a closer look

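The ratio of 3' to 5' actin signal, from array control probe sets that no comparison used, was 14.8 on GA-treated replicate 1, against 2.52 on GA-treated replicate 2, 4.44 and 2.22 in untreated roots at 120 min, and 4.94 and 2.43 in untreated roots at 0 min. It is listed because it lies above every untreated array. The GAPDH ratio was 1.76 on the same array, against 0.759 to 1.36 on the other 5. For a second set of control probe sets the actin ratio was 22.7 on that array and 12.9 to 21.0 on the other 5, and the GAPDH ratio was 12.1 on that array and 1.31 to 3.61 on the other 5.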

How the results depend on the processing

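The count of called probe sets between GA-treated roots and untreated roots at 0 min stayed at 0 under pseudocounts of 1 and 64, no filter, a filter at the 60th percentile, quantile normalization, median centring, no trend, array weights, only the 4 arrays compared, and the replicate block. With each array left out it ran from 0 to 6, the 6 arising without GA-treated replicate 2, where the lone treated array, replicate 1, was assumed to vary like the other groups. The number at an unadjusted p under 0.05, 350, was 180 with the filter at the 60th percentile (fewer probe sets tested), 924 with no filter (more tested), and 804 with the replicate block. It ran from 135 (without 0 min replicate 1) to 1718 (without GA-treated replicate 2) with each array left out. The cause of the other moves was not tested. Replicate numbers come from the titles alone. The differences between replicates 1 and 2 correlated across probe sets at 0.365 for GA-treated and 0 min roots, 0.342 for GA-treated and untreated 120 min roots, and 0.306 for untreated roots at 120 and 0 min, so same-numbered arrays deviated together. The labels name no shared batch or day for a number, and with 2 arrays a group this is a hint from the data.

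None of the 54 genes chosen for the largest differences turned sign under any alternative that tested them. They were chosen for groups that did not overlap. Leaving out an array or changing the pseudocount could therefore not turn their sign, and this is no test of them. Of the 68 genes followed, 8 did, all with an array left out: EXPA20 ran from -1.19 to 0.18, EXPA4 from -1.03 to 0.61, GID1A from -0.92 to 0.19, GID1B from -2.72 to 0.74, SLY1 from -0.81 to 0.085, XTH16 from -0.31 to 0.66, XTH20 from -0.40 to 0.17 and XTH21 from -0.40 to 0.53. The median of the alpha-expansins ran from -0.93 to -0.0152 with each array left out. Of the recomputed list medians with all arrays kept, 31 of 549 moved by more than the spread between replicates, and with an array left out 86 of 330 did. That spread was between the list's own replicate medians, so a list whose replicates differed had a wide limit. The histone median, 0.28 with all arrays and -0.25 without GA-treated replicate 1, did not count as moved. These counts are therefore no measure of how stable such lists are. The count of plastid genes that read lower, 42, was 33 without GA-treated replicate 1, an alternative added after the data were seen.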
